A study of Mus musculus with 2 samples.

Results

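The genes described here are the ribosomal protein genes, the nuclear genes that code for the protein part of the cytoplasmic ribosome. They were chosen by symbol: every gene whose name starts with Rpl (large subunit) or Rps (small subunit) followed by a digit, together with Rpsa, Rplp0, Rplp1 and Rplp2. Pseudogenes (5, marked -ps) and the 10 kinase genes whose names start with Rps6k were left out. The rule took 86 of the 32285 genes in the files, 52 of the large subunit by name and 34 of the small. The symbol rule uses no measured value, though it was set with earlier results of these data known. The symbol rule takes in Rps19bp1, whose product binds Rps19 and is not part of the ribosome. It leaves out Rack1 and Fau, which do code for ribosomal proteins and are given beside the members.

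2 groups of mice were studied, with 1 droplet library each. In both groups the recipients carried KrasLSL-G12D/+ and Lkb1fl/fl alleles, a conditional oncogene and a conditional tumour suppressor, and received Ad-Cre (an adenovirus that delivers Cre recombinase) through the nose, so that lung tumours form. Both were chimeras made with bone marrow from donors carrying Tmem173fl/fl, the floxed gene of the DNA-sensing adaptor STING. The donors of the group WTKL had no Cre, and the donors of LYZKL also carried Lyz2-Cre, which is active in the myeloid lineage and not in T cells. Cells were taken 8 weeks after Ad-Cre by sorting CD4- and CD8-positive T cells from the lung tumours. Tamoxifen is listed as a treatment for WTKL only. The labels give no age, no number of mice per library and no check of how completely the blood system was replaced. With 1 library per group no test is possible. Intervals are exact 95% intervals for counting error alone and say nothing of the spread between mice.

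Ribosomal protein messages are among the most abundant in any mammalian cell. Each ribosome needs one copy of nearly every protein (the acidic stalk proteins Rplp1 and Rplp2 are the exception and sit on Rplp0 in more than one copy), so the genes are usually expressed together. Their messages share a run of pyrimidines at the very start, the 5′ terminal oligopyrimidine (TOP) tract, through which growth signals acting on mTOR control their translation. Resting lymphocytes are small cells with little cytoplasm, activated T cells build new ribosomes as they grow, and mature neutrophils no longer divide.

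The start sites of the members were read from RefSeq (GRCm38.p6), which held 66 of the 86 members. Each line below gives 10 bases before the start and 20 from it, with the unbroken run of C and T that holds the start base in capitals. The first 4 genes are members with high levels or, for Rpl35, with the largest median difference between the libraries over types. The next 2 are a gene and its near copy, and the last 3 are members that left the family's pattern in the results.
Rpl35 (chr2:39005112-39005141, minus strand): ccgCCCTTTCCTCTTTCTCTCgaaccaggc
Rplp2 (chr7:141447641-141447670, plus strand): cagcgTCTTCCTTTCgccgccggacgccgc
Rps15a (chr7:118116128-118116157, minus strand): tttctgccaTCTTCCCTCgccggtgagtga
Rps24 (chr14:24490668-24490697, plus strand): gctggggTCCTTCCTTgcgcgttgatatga
Rps27 (chr3:90213629-90213658, minus strand): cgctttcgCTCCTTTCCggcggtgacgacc
Rps27rt (chr9:114982720-114982749, minus strand): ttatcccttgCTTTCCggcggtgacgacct
Rps27l (chr9:66946076-66946105, plus strand): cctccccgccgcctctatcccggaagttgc
Rpl36al (chr12:69184048-69184077, minus strand): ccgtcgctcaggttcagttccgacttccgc
Rpl12 (chr2:32961702-32961731, plus strand): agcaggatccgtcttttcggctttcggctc

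In these windows Rpl35, Rplp2, Rps15a, Rps24, Rps27 and Rps27rt have a run of pyrimidines at the annotated start. The annotated start base of Rps27l, Rpl36al and Rpl12 is a purine. The windows shown were picked and do not stand for the members. A run of at least 5 C or T that holds the start base was annotated for 21 of 66 members (31.8%) and 11.8% of all genes. A link between the start sequence and the levels was not tested. A start with C followed by at least 4 more pyrimidines was annotated for 14 of the 66 members (21.2%) and for 813 of the 27025 genes in the table (3.01%). Annotated starts can be off by some bases, so the count is one of the table, not of the messages. The letters CTTTCC, on either strand, occurred within the 300 bases around the start of 36 of 66 members (54.5%) against 29.3% of all genes, and CCGGAAG in 26 (39.4%) against 9.93%. These matches are descriptions of the sequence. Within these windows Rps27 and Rps27rt carry the same letters from CTTTCC on. The windows lie at the 5′ start and the libraries count 3′ ends. They therefore do not show whether reads of one gene are counted for the other.

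The WTKL matrix held 12204 barcodes and 77181312 unique molecular identifiers (UMIs, counted messages), and the LYZKL matrix 13607 and 93584629. The labels state 6609 and 7202 cells. 100 barcodes occur in both libraries. After removal of barcodes with under 500 genes, over 10% mitochondrially coded UMIs or a high doublet score, 10850 and 12004 cells were kept, with medians of 4678 and 5083 UMIs. Types were gated by how many of a fixed set of marker genes had a UMI, and none of the gate genes is a member. Each type name below stands for cells that resemble the type by those genes. The gates took 6390 cells of WTKL (58.9%) and 7198 of LYZKL (60.0%). The sort was for T cells, yet neutrophils (1049 and 1134 cells), macrophages or monocytes (307 and 431) and B cells (504 and 360) were present in both libraries. Neutrophils held S100a8 at 41140 and 51134 counts scaled to 1e+06 UMIs of the type (CPM) and Cd3e at 8.46 and 9.85, against 340 and 316 for Cd3e in CD8 naive cells. Both are gate genes, so these levels largely follow from the gating. Check genes are markers that chose no cells. The 9 neutrophil check genes summed to 13091 and 15376 CPM in neutrophils and to 61.1 and 41.2 in CD8 naive cells. Tmem173, the floxed gene, was at 19.0 and 3.08 CPM in neutrophils and at 41.5 and 35.8 in macrophages or monocytes. Whether the counted 3′ tags lie within the floxed part is not given, so Tmem173 does not check the labels.

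Ribosomal protein genes made up 21.9% (WTKL) and 21.7% (LYZKL) of the UMIs of all cells that passed, and the share differed widely by type. Naive T cells, which have not met antigen, had the largest share and neutrophils the smallest. In CD8 naive cells (368 and 200 cells) the members took 37.7% of UMIs in WTKL (37.6 to 37.7) and 36.9% in LYZKL (36.86 to 37.01). CD4 naive cells (481 and 347 cells) held 32.8% and 37.1%. B cells held 23.7% and 24.4%, CD8 effector cells (1055 and 2084 cells) 22.6% and 24.7%, and CD4 effector cells (2029 and 1839 cells) 23.0% and 24.3%. Cycling T cells (297 and 448 cells) held 21.3% and 22.3%, Treg cells (regulatory T cells, 300 and 355 cells) 18.3% and 19.0%, macrophages or monocytes 15.3% and 15.4%, and neutrophils 4.60% in both. B cells and both effector types are neighbours in this order, and which of them was higher differed between the libraries. Naive cells lay above every other type, and macrophages or monocytes and then neutrophils below every other type, in both libraries.

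**Figure D1:**
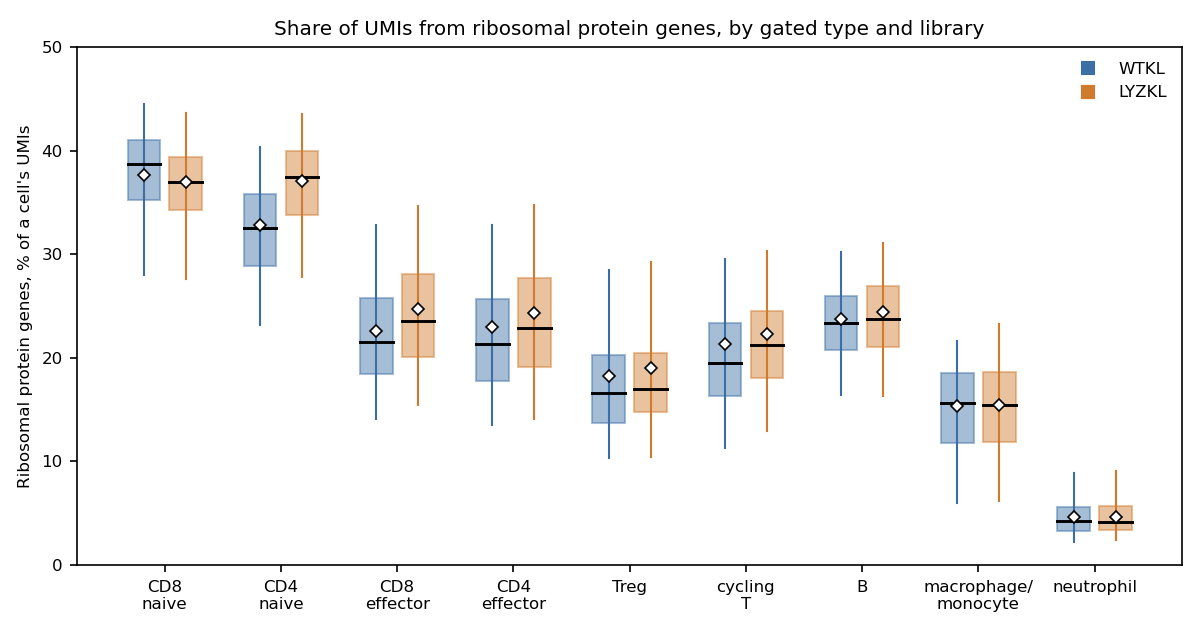
Share of each cell's UMIs that came from the 86 ribosomal protein genes (vertical axis, percent), by gated type and library. Boxes span the 25th to 75th percentile of cells, lines the 5th to 95th, black bars the median cell, and diamonds the share of all UMIs of the type. Boxes of naive cells lie above those of every other type and neutrophils lie lowest, and CD4 naive cells show the widest gap between the libraries (32.8% and 37.1%).

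Single cells overlapped little between the extremes. The 5th percentile of CD8 naive cells was 28.0% in WTKL and 27.6% in LYZKL, while the 95th percentile of neutrophils was 8.84% and 9.11%. Effector cells were more spread: the middle 90% of CD8 effector cells ran from 14.05% to 32.8% in WTKL and from 15.4% to 34.7% in LYZKL, so their upper end met the lower end of the naive cells.

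As numbers of molecules the order was another one. Cycling T cells, the deepest type with a median of 14355 and 15254 UMIs, held 2882 and 3225 member UMIs per cell at the median, CD8 naive cells 2626 and 2603, and CD8 effector cells 1067 and 1022. Neutrophils held 152 and 179. Depth and share were related within types in different directions. In CD4 naive cells the median share was 29.8% in the shallowest 25% of cells and 36.2% in the deepest 25% in WTKL, and 33.0% and 39.3% in LYZKL. In neutrophils it went the other way, 4.97% and 3.57% in WTKL and 5.03% and 3.51% in LYZKL. When all cells were thinned to 2000 UMIs before gating, the share was 38.2% and 35.3% in CD8 naive cells and 4.81% and 4.76% in neutrophils. The ratio between these types was then 7.94 and 7.42, where it was 8.19 and 8.04 without thinning.

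Large-subunit genes took 1.19 to 1.35 times the UMIs of small-subunit genes in all types and both libraries. The ratio was 1.22 in CD8 naive cells of both libraries, 1.31 and 1.28 in CD8 effector cells and 1.33 and 1.35 in Treg cells.

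The levels of single members spanned a wide range. Of the 86 members, 76 averaged at least 1000 CPM over the types. Rplp1, a stalk protein that recruits translation factors (chr9:61913284-61914542), was the highest, with 13564 CPM in CD8 naive cells of WTKL and 12253 in LYZKL, and 1187 and 951 in neutrophils. It was followed in mean level by Rps24, Rps15a, Rplp2 and Rps14. Rps24 had 9906 and 10075 CPM in CD8 naive cells and 741 and 730 in neutrophils. Rplp2, the partner of Rplp1 in the stalk, had 9303 and 8584 CPM in CD8 naive cells and 1175 and 1043 in neutrophils. Rplp0, on which the stalk is built, had 5864 and 6083 in CD8 naive and 494 and 430 in neutrophils. All libraries count 3′ ends, so levels of different genes are compared here as molecules without regard to length.

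6 genes stayed under 100 CPM in every type. Rpl7l1, related to Rpl7, ranged from 29.0 to 69.1 CPM. Rps27rt ranged from 8.62 to 60.4 and Rps19bp1 from 9.28 to 32.9 CPM. Rpl3l, the form of Rpl3 known from heart and skeletal muscle, reached 11.3 and 10.5 CPM in neutrophils and 7.87 and 5.99 in macrophages or monocytes, and at most 0.434 in any lymphoid type. Rpl39l, known from testis, reached 7.08 CPM in macrophages or monocytes of WTKL and 0.545 in LYZKL. Rpl10l, a retrogene known from testis, had 0 UMIs in all gated cells of both libraries, and a count of 0 allows up to 3.

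Between naive and effector CD8 T cells, most of the family was higher in the naive cells. Of the 86 members, 82 reached 30 CPM (the mean of the types compared, in both libraries). Of these, 71 were at least 25% higher in CD8 naive than in CD8 effector cells in both libraries, where 12.2% of all 4336 genes tested were. (A ratio at least 25% higher, or at least 20% lower, which is the same distance the other way, is the limit used throughout.) Rps27l was the only one at least 20% lower, where 32.9% of all genes were. The median log2 ratio of the members was 0.71 in WTKL and 0.55 in LYZKL, against -0.25 and -0.18 for all genes tested. In CPM scaled by the total, a larger share of ribosomal protein UMIs lowers every other gene, and scaling by TMM (trimmed mean of M-values) moved all log2 ratios up by 0.24 in WTKL and 0.14 in LYZKL. With it the members' medians were 0.95 and 0.70. Rps19, a small-subunit protein needed for rRNA maturation, was at 6474 and 2758 CPM in CD8 naive and effector cells of WTKL and at 6706 and 3236 in LYZKL. Its naive levels were more than 2 times its effector levels in both libraries. Rps27l was at 104 and 182 CPM in WTKL and at 106 and 164 in LYZKL. With cells thinned to 2000 UMIs it had only 15 UMIs in the CD8 naive cells of either library (68.8 and 121 CPM) and was not called.

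Among the 10 members that were tested and not called either way in CD8 cells were Rpl13a, Rpl22l1, Rpl24, Rpl27, Rpl34, Rpl36al, Rpl41, Rpl7a and Rpl7l1. Rpl27 was at 4202 and 3797 CPM in CD8 naive and effector cells of WTKL and at 3823 and 3604 in LYZKL. It was a high-level gene whose naive and effector levels lay close together.

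CD4 cells gave a like count. Of the 82 members tested, 64 were at least 25% higher in CD4 naive than in CD4 effector cells in both libraries, where 12.3% of all 4409 genes were, and Rps27l alone was at least 20% lower, where 34.3% of all genes were. The median log2 ratio was 0.49 in WTKL and 0.57 in LYZKL, against -0.19 and -0.25 for all genes. Under TMM the log2 ratios moved up by 0.12 and 0.16. Rps29 was at 3831 and 2053 CPM in CD4 naive and effector cells of WTKL and at 4239 and 2084 in LYZKL. Rps27 was at 6600 and 3646 in WTKL and at 7031 and 3470 in LYZKL. Rpl24 was at 1825 and 1784 in WTKL and at 2255 and 2353 in LYZKL, so its levels in naive and effector cells were close where those of Rps27 and Rps29 were nearly 2-fold apart.

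Against neutrophils nearly the whole family was higher in naive cells. The share was 8.19 times higher in CD8 naive cells in WTKL and 8.04 times in LYZKL. Of 82 members tested, 80 were at least 25% higher in CD8 naive cells, where 41.4% of 3975 genes were, and Rps27l alone was at least 20% lower, where 35.7% were. Rpl7l1 was the remaining member, not called. The median log2 ratio was 2.98 in WTKL and 2.97 in LYZKL, against 0.11 and 0.17 for all genes. TMM moved these ratios down by 0.44 and 0.73, which left the members' medians at 2.54 and 2.24. Rpl12, a protein of the stalk base, was at 6898 CPM in CD8 naive cells and 276 in neutrophils of WTKL, and at 7257 and 199 in LYZKL. Rpl3, at 2998 and 112 CPM in WTKL and at 3200 and 89.9 in LYZKL, lay about as far from its neutrophil level (log2 4.74 and 5.15, against 4.64 and 5.19 for Rpl12). Rps9 was at 3745 and 1691 CPM in WTKL and at 3702 and 1820 in LYZKL. It is a small-subunit protein near the entry of the mRNA channel, and the neutrophil level of Rps9 was higher than that of any other member in both libraries.

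Rps27l was at 104 CPM in CD8 naive cells and 176 in neutrophils of WTKL, and at 106 and 164 in LYZKL. With neutrophils gated by 6 marker genes rather than 4, it was at 139 and 89.3 CPM in neutrophils, below the CD8 naive level in LYZKL. With 1 more gate gene for every type it was at 98.4 and 154 CPM in CD8 naive cells and neutrophils of WTKL and at 107 and 126 in LYZKL. The direction held in WTKL under both stricter gates, and in LYZKL it turned with 6 neutrophil genes. Neither gate left it called in both libraries.

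Against macrophages or monocytes the distance was smaller. The share in CD8 naive cells was 2.46 times that in macrophages or monocytes in WTKL and 2.40 times in LYZKL. Of 82 members, 77 were at least 25% higher in CD8 naive cells, where 38.3% of 4234 genes were, and Rps27l alone was at least 20% lower, where 35.1% were. Rpl10, Rpl24, Rpl36al and Rpl7l1 were not called. The median log2 ratio was 1.30 and 1.24, against 0.027 and 0.15 for all genes, and TMM moved it down by 0.20 and 0.45. Rps27l was at 104 and 374 CPM in CD8 naive cells and macrophages or monocytes of WTKL, and at 106 and 355 in LYZKL. Rpl10, which sits near the peptidyl transferase centre, was at 2496 and 2204 in WTKL and at 2546 and 2246 in LYZKL. Rpl12 was at 6898 and 1112 in WTKL and at 7257 and 1151 in LYZKL.

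The make-up of the family also differed between types once the total share was set aside. For this each member was taken as its share of all member UMIs. Between CD8 naive and CD8 effector cells, 69 of 80 members with at least 100 CPM throughout had the same direction in both libraries, and 5 members were at least 25% higher and 5 at least 20% lower in both. In the order of the smaller of the 2 differences, the highest within the family in CD8 naive cells were Rps19 (log2 0.49 and 0.47), Rps20 (0.49 and 0.44), Rpl12, Rpl36a and Rplp1, and among the lowest were Rps27l (-1.55 and -1.22), Rpl27 (-0.59 and -0.50), Rpl36al and Rpl22l1. In CD4 cells, 74 of 79 had the same direction. Rps29 (0.39 and 0.42), Rps27, Rps20, Rpl12 and Rps16 were highest, and Rpl24 (-0.48 and -0.67), Rpl36al, Rpl27 and Rpl7a were among the lowest. Rps20 and Rpl12 were among the 5 highest and Rpl36al and Rpl27 among the 5 lowest in both the CD8 and the CD4 comparison.

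Against neutrophils the family was rearranged more. Of 77 members, 18 had a part of the family at least 25% larger in CD8 naive cells and 18 one at least 20% smaller, in both libraries. The highest were Rpl12 (log2 1.61 in WTKL and 2.18 in LYZKL), Rpl36a (1.39 and 1.75), Rpl10a, Rps18 and Rps20. The lowest were Rps27l (-3.79 and -3.64), Rps9 (-1.89 and -1.98), Rpl41, Rps25 and Rpl37. Against macrophages or monocytes, 8 of 80 members were higher within the family and 16 lower. Rpl12 (1.34 and 1.395), Rps24, Rpl3, Rpsa and Rpl13a were highest and Rps27l (-3.14 and -3.01), Rpl36al, Rpl10, Rpl24 and Rpl41 lowest.

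**Figure D2:**
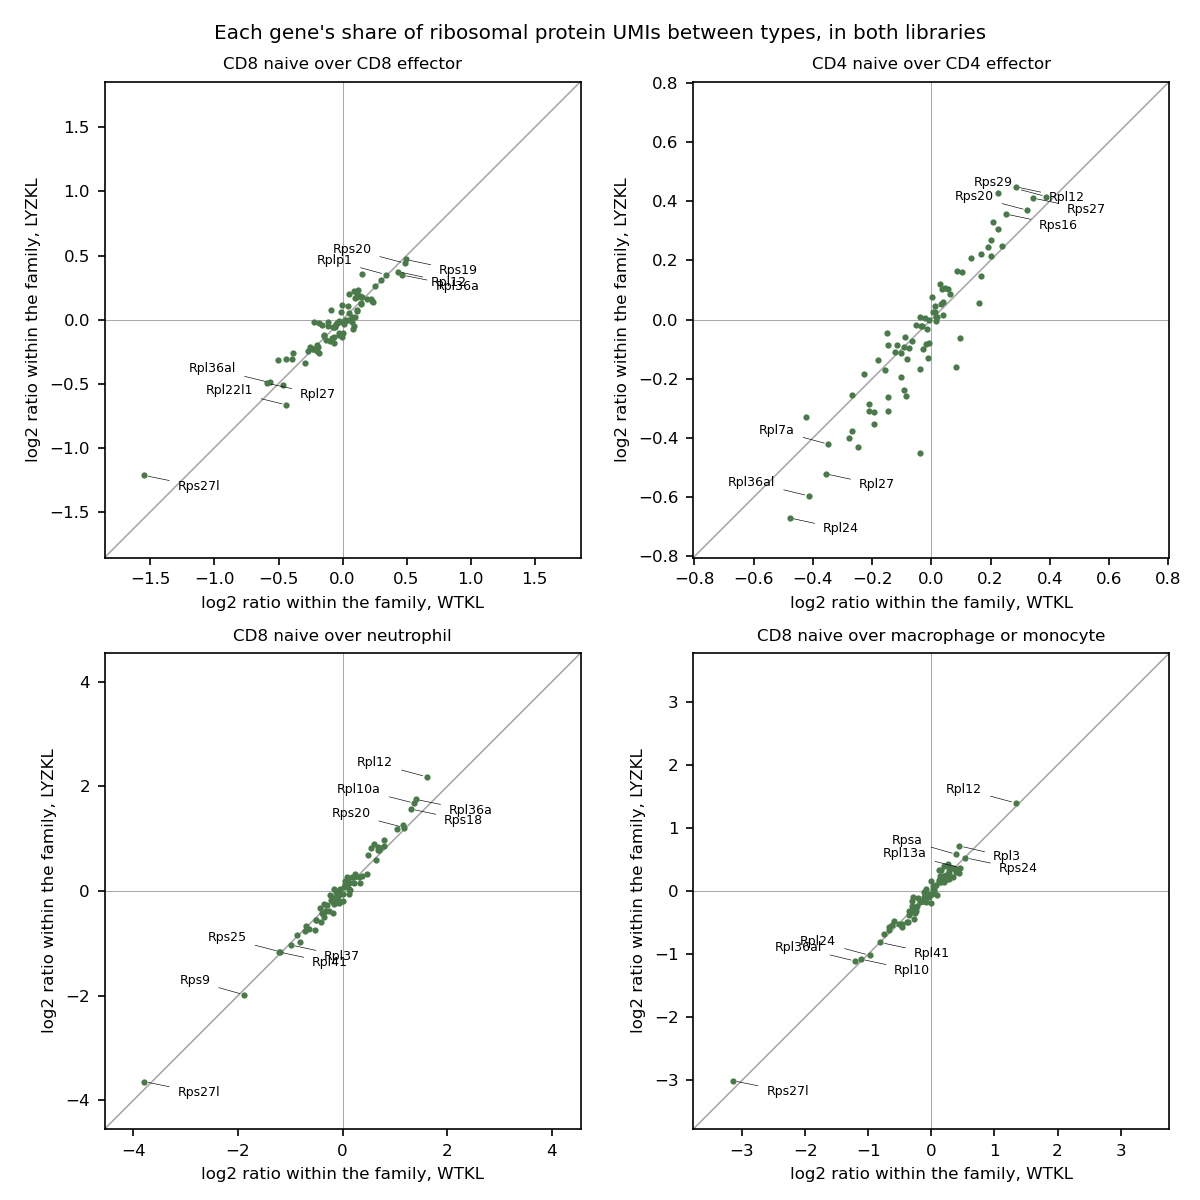
Each point is 1 ribosomal protein gene with at least 100 CPM in both types and both libraries. Axes give the log2 ratio of its share of ribosomal protein UMIs between the types named above each panel, in WTKL (horizontal) and LYZKL (vertical), and the diagonal marks equal values. Points lie along the diagonal in all 4 panels, and Rps27l lies farthest to the lower left in the 3 panels with CD8 naive cells.

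Other types had their own outlying members, picked here after their values were seen. In cycling T cells Rps27 made up 0.947% and 0.891% of member UMIs, while in B cells it made up 2.596% and 2.582% and in neutrophils 2.98% and 3.04%. Rps2 made up 2.00% and 1.83% in cycling T cells and, in CD8 effector cells, 1.23% and 1.16%. Rplp0 had 0.957% and 0.991% of member UMIs in B cells, and relative to its mean it was lower there than in any other lymphoid type. Rps9 had 3.68% and 3.96% in neutrophils and 0.994% and 1.00% in CD8 naive cells. Rpl10a, a large-subunit protein, had 0.277% and 0.238% in neutrophils.

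**Figure D3:**
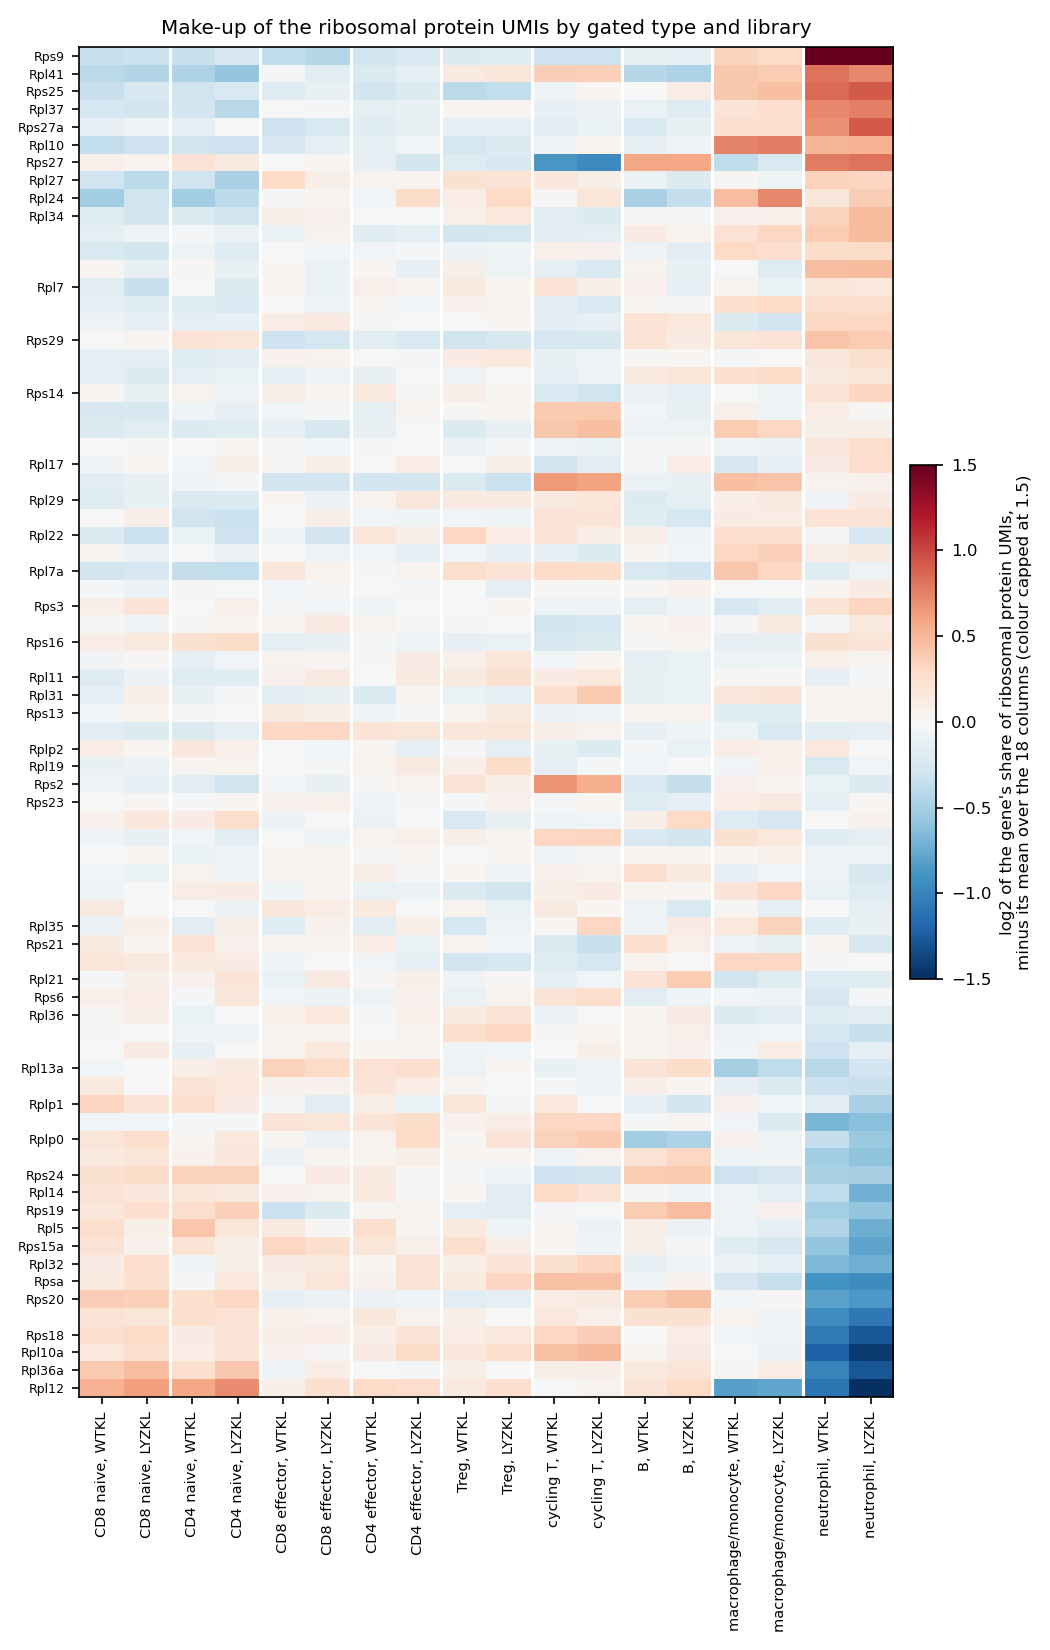
Make-up of the family by gated type and library. Rows are the 76 members with at least 100 CPM in every type and library (those named in the text are labelled), columns are types in WTKL and LYZKL, and colour gives the log2 share of member UMIs minus the gene's mean over the columns. In the neutrophil columns Rps9 is highest and Rpl10a (WTKL) or Rpl12 (LYZKL) lowest, and the columns of WTKL and LYZKL of a type look alike.

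Several members have a paralogue in the list, and these pairs did not share a pattern. Rps27l, known as a p53 target and similar to Rps27, made up 1.496% of the UMIs of Rps27 and Rps27l together in CD8 naive cells of WTKL (1.32 to 1.68) and 1.57% in LYZKL (1.33 to 1.83). In CD8 effector cells it made up 4.46% and 3.63%, in Treg cells 7.34% and 6.61%, in macrophages or monocytes 15.5% and 13.4%, and in cycling T cells 16.3% (15.7 to 17.003) and 15.6% (15.1 to 16.2). The levels of Rps27l and Rps27 ran in opposite directions here: in cycling T cells Rps27l had 393 and 369 CPM, its highest levels, and Rps27 2017 and 1990, its lowest in any lymphoid type.

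Rps27rt, the near copy of Rps27 whose start is printed above, kept a nearly fixed ratio. It made up 0.61% to 0.90% of the UMIs of Rps27 and Rps27rt in all 9 types and both libraries. Whether its UMIs belong to Rps27 cannot be told apart in these counts.

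Rpl22l1 and Rpl22 are paralogues known to regulate each other in T cell development. Rpl22l1 made up 32.1% of the pair in CD8 effector cells of WTKL (31.2 to 32.9) and 36.5% in LYZKL (35.9 to 37.2), 28.0% and 27.2% in CD8 naive cells, and 17.4% in neutrophils of both libraries. In Treg cells it made up 22.9% (21.5 to 24.3) in WTKL and 28.8% (27.5 to 30.1) in LYZKL. The intervals of the libraries lay apart in CD8 effector, CD4 effector, Treg and cycling T cells, in each case with more Rpl22l1 in LYZKL.

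Rpl36al, an autosomal copy of the X-linked Rpl36a, made up 18.1% and 17.1% of that pair in CD8 naive cells and 43.8% and 42.3% in neutrophils. Macrophages or monocytes lay at 39.9% and 36.3%, and CD8 effector cells at 31.2% and 27.0%. The part of Rpl36al was lowest in naive cells in both libraries. Of the other pairs, Rpl7l1 made up 1.26% to 6.34% of Rpl7 and Rpl7l1, highest in neutrophils, and Rpl3l 9.13% and 10.4% of Rpl3 and Rpl3l in neutrophils, where Rpl3 itself had only 112 and 89.9 CPM.

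**Figure D4:**
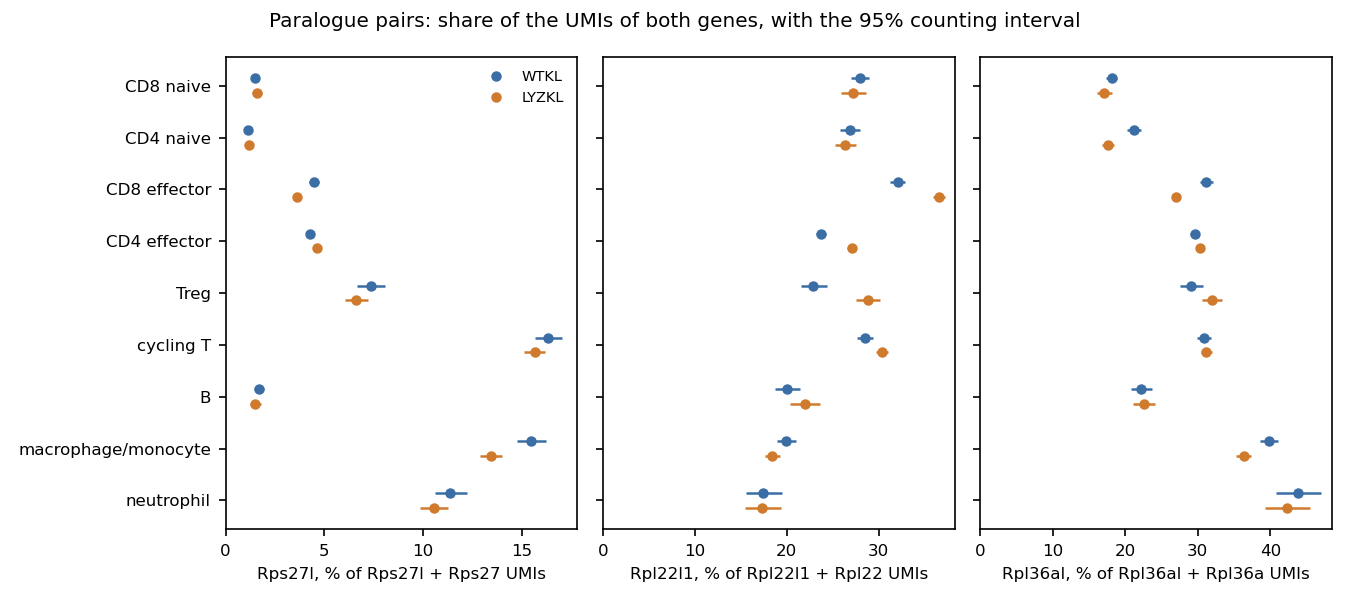
Share of the UMIs of a paralogue pair that came from the first gene (horizontal axis, percent), by type (rows) and library (colours), with 95% exact counting intervals. Rps27l is highest in cycling T cells and macrophages or monocytes (13.4% to 16.3%) and lowest in naive and B cells, Rpl22l1 is highest in CD8 effector cells, and Rpl36al is highest in neutrophils.

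Between the libraries, the family's share was higher in LYZKL in 7 of 9 types and the largest difference was in CD4 naive cells. There the share was 32.8% in WTKL and 37.1% in LYZKL, a ratio of 1.13 (log2 0.18, 0.17 to 0.18). In CD8 effector cells the ratio was 1.09 (log2 0.13), in CD4 effector cells 1.06, in cycling T cells 1.05, in Treg cells 1.04 and in B cells 1.03. Macrophages or monocytes (1.00) and neutrophils (0.9996), the types in which Lyz2-Cre is active, had nearly equal shares. For macrophages or monocytes the log2 ratio was -0.073 with cells thinned to 2000 UMIs and 0.13 in cells of 4000 to 8000 UMIs. In CD8 naive cells the share was lower in LYZKL, with a ratio of 0.981 (log2 -0.028), and the log2 ratio was 0.0027 with at most 1 effector gate gene allowed in a naive cell (101 and 56 cells). The naive to effector ratios within a library, 1.67 and 1.497 in CD8 and 1.43 and 1.52 in CD4 cells, were larger than any of these. Since a group is 1 library, they cannot be told apart from differences between mice or preparations.

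Other measures moved along with the CD4 naive difference. WTKL cells of this type had a median of 4666 UMIs and LYZKL cells 5826. Lgals1, a gene of activated cells, was at 167 and 59.1 CPM, and the 9 CD4 effector check genes summed to 1197 and 1000 CPM with all 9 above 0 in both. The naive check genes were also higher in WTKL, 3719 and 3107 CPM. Within cells of 4000 to 8000 UMIs the log2 ratio was 0.16, and with at most 1 effector gate gene it was 0.18. In CD8 effector cells the gate genes of cytotoxic cells summed to 24387 CPM in WTKL and 16253 in LYZKL, and the check genes of NK cells to 4822 and 2330. Gzma and Prf1 are in both of these lists. The 11 CD8 effector check genes went the other way, 4733 and 5996 CPM. So did the 9 CD4 effector check genes in these cells, 9340 and 11757 CPM. Median UMIs of CD4 effector cells were 4895 and 6303. In neutrophils immediate early and heat shock genes summed to 14119 and 9424 CPM. Of the listed RNA quality and handling genes (Malat1, Neat1, and immediate early and heat shock genes), 7 of 9 tested were lower in LYZKL in CD4 naive cells, with a median log2 ratio of -0.18 where all genes had -0.085. Of all genes, 37.7% were higher in LYZKL in CD4 naive cells. Among the listed genes, Malat1 was at 8424 and 7034 CPM there. In CD8 effector cells 8 of 10 were higher in LYZKL, where 52.7% of all genes were (median 0.31, all genes 0.014, Fos at 581 and 833 CPM). In CD4 effector cells 8 of 9 were lower (median -0.19, all genes -0.0027), and in neutrophils 9 of 10 (median -0.52, all genes -0.013). Of all genes, 49.2% and 48.2% were higher in these types. In Treg cells 8 of 9 and in cycling T cells 6 of 8 were lower, where 48.0% and 54.2% of all genes were higher. In macrophages or monocytes 6 of 10 were higher, where 43.0% of all genes were. In CD8 naive cells 5 of 9 and in B cells 5 of 10 were higher. The part of these measures in the differences was not tested.

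Gene by gene, the members followed the share. In CD4 naive cells 76 of 82 members were higher in LYZKL, where 37.7% of all genes were. The median log2 ratio was 0.19 against -0.085 for all genes, and 6 members were at least 25% higher, where 6.97% of all genes were. None was at least 20% lower, where 18.2% of all genes were. The 6 were Rpl35, Rps6, Rpl3, Rpsa, Rpl36a and Rpl32. Rpl35 was at 1255 CPM in WTKL and 1701 in LYZKL (log2 0.44, 0.37 to 0.51). Rps6, whose phosphorylation by S6 kinase is a common readout of mTOR activity, was at 2826 and 3645 (log2 0.37, 0.32 to 0.42). The lowest were Rpl22l1, at 755 and 717, Rpl5 at 5416 and 5225 and Rpl22 at 2056 and 2002 CPM, all close to equal.

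In CD8 effector cells 75 of 81 members were higher in LYZKL, where 52.7% of all genes were (median log2 0.13, all genes 0.014). Rpl35 (853 and 1108 CPM) and Rpl21 (2617 and 3368) were at least 25% higher, where 10.8% of all genes were, and none was at least 20% lower, where 9.42% were. Rps27l (182 and 164 CPM), Rpl22 and Rpl27 were lowest. In CD4 effector cells 62 of 81 were higher, where 49.2% of all genes were (median log2 0.11, all genes -0.0027). Of them, 2 were at least 25% higher, where 6.53% of all genes were, and none was at least 20% lower, where 6.11% were. The 2 were Rpl24, at 1784 and 2353 CPM (log2 0.40, 0.37 to 0.43), and Rpl35. Rpl5, Rps21 and Rplp1 were lowest, with Rplp1 at 7082 and 6591 CPM.

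In Treg cells 61 of 81 members were higher in LYZKL, where 48.0% of all genes were (median log2 0.075, all genes -0.012). None was at least 25% higher, where 8.99% of all genes were. Rpl7l1, at 51.3 and 38.7 CPM from 90 and 94 UMIs, was at least 20% lower, where 10.4% of all genes were, and its interval (-0.84 to 0.027) includes 0. With cells thinned to 2000 UMIs its log2 ratio was 0.91, the other direction. In cycling T cells 62 of 82 were higher, where 54.2% of all genes were (median log2 0.084, all genes 0.017). Rpl35, at 936 and 1192 CPM, was the only one at least 25% higher, where 4.99% of all genes were, and none was at least 20% lower, where 3.22% were. Cycling T cells differed in make-up between the libraries, with CD8 effector gate genes at 6214 and 1610 CPM.

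In B cells 53 of 82 members were higher, where 52.1% of all genes were (median log2 0.048, all genes 0.013). None differed by as much as the limit in either direction, where 12.5% of all genes were higher and 9.36% lower. In CD8 naive cells 40 of 82 were higher, where 62.5% of all genes were (median -0.0046, all genes 0.067). Again none was past the limit, where 14.6% of all genes were higher and 4.93% lower. TMM moved the CD8 naive ratios down by 0.11. That left 5 of 82 members higher in LYZKL and a median of -0.11, against -0.042 for all genes. How many members were lower in CD8 naive cells thus depends on the scaling. Under the same scaling 81 of 82 members were higher in CD4 naive cells, 25 of them by at least 25%. Their median was 0.27, against -0.0080 for all genes. The shares of all genes that were higher, or higher by 25%, under TMM were not counted.

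In the myeloid types the members were split. Of 81 in macrophages or monocytes, 43 were higher in LYZKL, where 43.0% of all genes were (median log2 0.0051, all genes -0.036). None passed the limit, where 5.94% of all genes were higher and 10.6% lower. TMM left 56 of 81 higher, with a median of 0.052 against 0.010 for all genes. In neutrophils 40 of 80 were higher, where 48.2% of all genes were (median log2 0.0013, all genes -0.013). None was higher by 25%, where 9.46% of all genes were, and 3 were lower past the limit, where 12.6% were. These were Rpl12, at 276 and 199 CPM (log2 -0.47, -0.60 to -0.35), Rpl14, at 295 and 234, and Rpl36al, at 112 and 86.4. In cells of 4000 to 8000 UMIs the log2 ratio was -0.15 for Rpl14, inside the limit, and 0.13 for Rpl36al, the other direction, while Rpl12 had -0.35. Rplp1 was at 1187 and 951 CPM in neutrophils, just inside that limit. TMM left 53 of 80 higher, with a median of 0.055 against 0.041 for all genes.

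**Figure D5:**
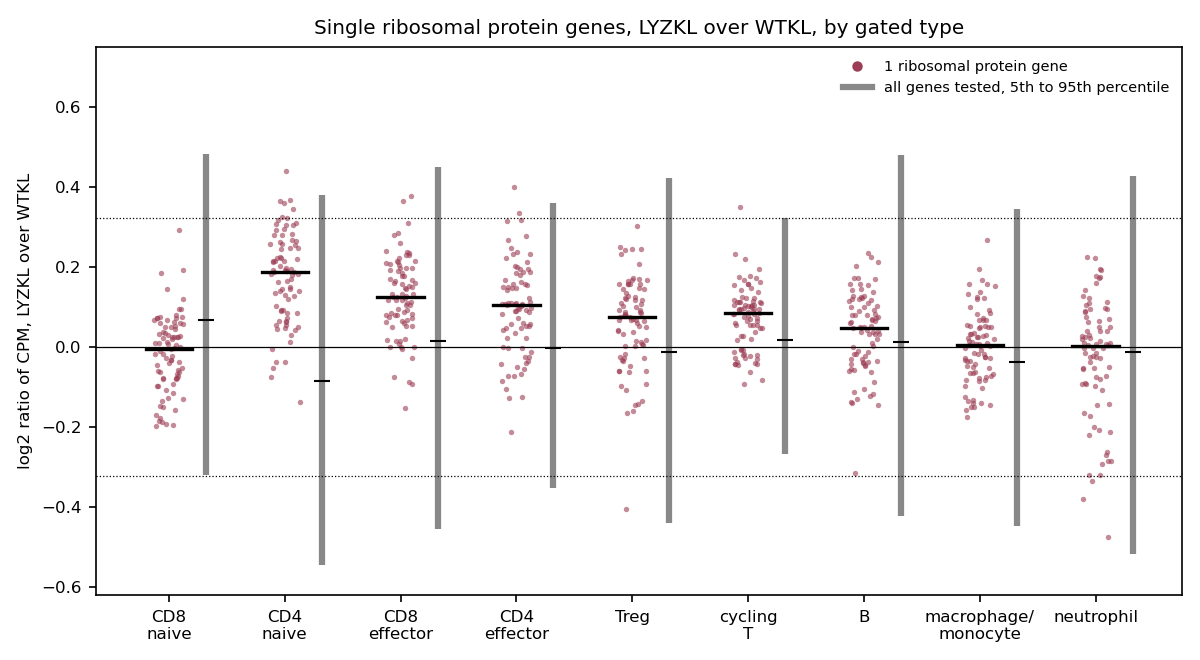
log2 ratio of CPM between the libraries, LYZKL over WTKL (vertical axis), for each ribosomal protein gene tested (points) by type. Black bars are the members' medians, grey bars the 5th to 95th percentile of all genes tested with their median, and dotted lines mark 25% higher and 20% lower. Points sit above 0 in CD4 naive and CD8 effector cells (medians 0.19 and 0.13) and around 0 in CD8 naive cells, macrophages or monocytes and neutrophils.

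Across types, 80 members could be compared in all 9. Of these, 17 were higher in LYZKL in every type, among them Rpl10, Rpl11, Rpl13a, Rpl17, Rpl19, Rpl21, Rpl24, Rpl29, Rpl31, Rpl35, Rpl36, Rps3, Rps13, Rps23, Rps25 and Rps27a. None was lower in every type, and Rpl5, Rpl22 and Rplp1 were lower in 8 of 9. Rpl35 had a median log2 ratio over types of 0.24 (0.076 to 0.44) and Rpl24 of 0.23 (0.17 to 0.40). Rpl5, which with Rpl11 and 5S rRNA forms the particle that binds Mdm2, had a median of -0.13, while Rpl11 was higher in all 9 types. The types share a library, so their ratios are not independent of each other. The same counts were not made over all genes, so these counts have no background to be read against.

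Rack1 and Fau, ribosomal proteins with other symbols, were outside the rule. Rack1, a scaffold on the small subunit, followed the family, at 3939 and 3900 CPM in CD8 naive cells and 322 and 307 in neutrophils. Fau, a fusion with the small-subunit protein eS30, was at 5324 and 5234 CPM in CD8 naive cells and still 3254 and 3297 in neutrophils. Its ratio between these types was 1.64 and 1.59, where the family's share differed 8.19- and 8.04-fold.

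Of 20 other genes of the TOP class, mostly translation factors, all 20 were higher in CD8 naive cells than in neutrophils in each library, where 53.0% and 54.5% of all genes tested were (medians 2.51 and 2.47, all genes 0.11 and 0.17). Against CD8 effector cells 16 in WTKL and 18 in LYZKL were higher, where 29.6% and 35.3% of all genes were, with medians of 0.29 and 0.16 against -0.25 and -0.18. Eef1a1, the factor that brings tRNA to the ribosome, was at 10980 and 8281 CPM in CD8 naive and effector cells of WTKL and at 9557 and 7987 in LYZKL. Tpt1 was at 17631 and 10273 in WTKL and at 15082 and 9848 in LYZKL. Between the libraries Eef1a1 (log2 -0.20) and Tpt1 (-0.23) were lower in CD8 naive cells of LYZKL. Tpt1 was lower in LYZKL in all 9 types, though in CD4 naive cells its interval (-0.028 to 0.014) includes 0. Of the 20, 8 were higher in LYZKL in CD8 naive, 15 in CD4 naive, 14 in CD4 effector cells and 3 in macrophages or monocytes. The shares of all genes were 62.5%, 37.7%, 49.2% and 43.0%. The list's medians were -0.071, 0.078, 0.13 and -0.072, against 0.067, -0.085, -0.0027 and -0.036 for all genes.

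Of 40 listed ribosome biogenesis genes, 26 were tested between CD8 naive and CD8 effector cells. Of these, 24 were higher in the naive cells in each library, where 29.6% and 35.3% of all genes were. The medians were 0.58 and 0.52 against -0.25 and -0.18 for all genes. In the mean of the libraries 30 of the 40 reached 30 CPM in CD8 naive cells and 23 in CD8 effector cells. Some of the 26 thus entered through their naive level. In CD4 cells 17 and 18 of 26 were higher, where 34.7% and 31.3% of all genes were. The medians there were 0.25 and 0.19 against -0.19 and -0.25. Mitochondrial ribosomal proteins, a separate family that serves the mitochondrial ribosome, stayed near the level of all genes in CD8 cells. Of 78 listed, 48 were tested. In WTKL 36 and in LYZKL 34 of them were lower in CD8 naive than in CD8 effector cells. The other 12 and 14 were higher, where 29.6% and 35.3% of all genes were. The medians were -0.30 and -0.19 where all genes had -0.25 and -0.18. In CD4 cells 39 and 42 of 46 were lower, with medians of -0.36 and -0.44 against -0.19 and -0.25. The other 7 and 4 were higher, where 34.7% and 31.3% of all genes were. Between the libraries 24 of 46 mitochondrial ribosomal protein genes were higher in LYZKL in CD4 naive cells (median 0.012, all genes -0.085). There 76 of 82 cytoplasmic ones and 37.7% of all genes were higher.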

How the data were processed

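T cells sorted from lung tumours were profiled as 1 droplet library per group. The authors deposited unnormalized UMI counts for each gene and barcode, made with Cell Ranger 6.1.2 on mm10, per the submitters' processing notes. How reads that match several gene copies were counted is not given in the sources used here, so levels of members with near-identical copies are uncertain. Gene positions come from GENCODE M21 (GRCm38), in which all 86 members were found by gene ID.

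Barcodes under 500 detected genes, or over 10% of UMIs from mitochondrially coded genes, were removed. Scrublet (in scanpy 1.11.5) marked 0 doublets by its automatic threshold in both libraries, so a rate of 0.8% per 1000 cells was assumed and that many top-scoring cells (1153 and 1447) were dropped. A cell was gated when enough genes of a fixed list had a UMI: 3 of the T lineage, then 4 naive genes with at most 3 effector genes, 4 CD8 or 5 CD4 effector genes with at most 2 naive genes, Foxp3 and 3 Treg genes, 3 cycling genes, 3 B, 3 macrophage or 4 neutrophil genes. These thresholds were set on the markers after seeing them. Marker lists for gamma-delta T, NK and dendritic cells neither chose nor removed cells, so such cells can lie within the named types. Plasma cells had a gate but are not compared.

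UMIs were summed per library and type and scaled to CPM by the type's total. Genes with a mean of 30 CPM entered a comparison, and a gene was called when at least 25% higher or at least 20% lower (in both libraries between types). In the ratios used for calls and medians, values under 3 counts were set to 3 counts. Shares have Clopper-Pearson intervals and ratios exact conditional binomial intervals (95%, counting error only). Ratios and intervals were tested on simulated data. TMM factors came from edgeR 4.0.16 in R 4.3.3, and all else from Python 3.11.15 with numpy 2.4.6, pandas 2.3.3, scipy 1.17.1 and matplotlib 3.10.9. With 1 library per group there was no test, and 15 alternative settings were tried.

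Named members were, with at least 100 CPM, the 3 highest and 3 lowest ratios between the libraries per type, the 5 highest and 5 lowest between types within the family, the 5 highest levels, those under 5 CPM throughout, and a list of paralogues and well-known members. The members, lists and rules were chosen with earlier results of these data known. Some members are not reported here by name.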

Additional observations from a re-analysis of the deposited data

Results flagged for a closer look

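In the main setting the share of ribosomal protein UMIs went in opposite directions between the libraries in different types. It was lower in LYZKL in CD8 naive cells (log2 ratio -0.028) and higher in CD4 naive (0.18), CD8 effector (0.13), CD4 effector (0.081), Treg (0.057), cycling T (0.067), B (0.040) and macrophage or monocyte (0.0069) cells. With 1 library per group the difference between the types' ratios was not tested.

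The 5 pseudogene-named features that the symbol rule leaves out held 2884 UMIs in kept cells of WTKL and 3327 in LYZKL, above the 3 counts that an absent gene allows. That is 0.0198% and 0.0195% of the members' UMIs. Rpl9-ps6 had 1354 and 1716 of them, Rpl10-ps3 1011 and 1032, Rpl36a-ps1 517 and 571, Rpl9-ps1 2 and 8 and Rpl36-ps4 0 in both.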

How the results depend on the processing

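The values above are the main ones, and 15 other settings were tried, of which 4 were chosen after seeing the data (the total without Gm42418 and AY036118, 6 neutrophil gate genes, at most 1 effector gate gene in naive cells, and cells of 4000 to 8000 UMIs). In what follows the log2 library ratio is that of the share, LYZKL over WTKL, and pairs of ratios between types are WTKL and LYZKL. These are the values that moved by more than their counting interval, and the cause was not tested. With doublets kept, the log2 library ratio was -0.0397 in CD8 naive, 0.17 in CD4 naive, 0.10 in CD8 effector, 0.068 in CD4 effector and 0.078 in cycling T, and the share ratio between types was 1.66 and 1.502 (CD8 naive over CD8 effector), 8.09 and 7.85 (CD8 naive over neutrophil) and 2.44 and 2.36 (CD8 naive over macrophage). With 1 more gate gene per type, the log2 library ratio was -0.021 in CD8 naive, 0.17 in CD4 naive, 0.14 in CD8 effector, 0.097 in CD4 effector, 0.067 in Treg, 0.076 in cycling T and -0.023 in neutrophils, and the share ratio between types was 1.71 and 1.53 (CD8 naive over CD8 effector), 1.47 and 1.54 (CD4 naive over CD4 effector), 8.75 and 8.77 (CD8 naive over neutrophil) and 2.48 and 2.44 (CD8 naive over macrophage). As the mean of per-cell shares, the log2 library ratio was -0.048 in CD8 naive, 0.19 in CD4 naive, 0.091 in CD4 effector, 0.086 in cycling T, 0.031 in B, 0.026 in macrophages or monocytes and 0.027 in neutrophils, and the share ratio between types was 1.69 in WTKL (CD8 naive over CD8 effector), 1.46 and 1.56 (CD4 naive over CD4 effector), 7.96 and 7.56 (CD8 naive over neutrophil) and 2.51 and 2.38 (CD8 naive over macrophage). With cells thinned to 2000 UMIs, the log2 library ratio was -0.11 in CD8 naive, 0.17 in CD4 naive, 0.13 in CD8 effector, 0.10 in CD4 effector, 0.13 in Treg, 0.11 in cycling T, 0.028 in B, -0.073 in macrophages or monocytes and -0.016 in neutrophils, and the share ratio between types was 1.77 and 1.49 (CD8 naive over CD8 effector), 1.53 and 1.598 (CD4 naive over CD4 effector), 7.94 and 7.42 (CD8 naive over neutrophil) and 2.35 and 2.28 (CD8 naive over macrophage). Without Gm42418 and AY036118 in the total, the log2 library ratio was -0.035 in CD8 naive, 0.073 in CD4 effector and 0.061 in cycling T, and the share ratio between types was 1.49 in LYZKL (CD8 naive over CD8 effector), 8.30 and 8.11 (CD8 naive over neutrophil) and 2.39 in LYZKL (CD8 naive over macrophage). With at most 1 effector gate gene in naive cells, the log2 library ratio was 0.0027 in CD8 naive, and the share ratio between types was 1.65 and 1.51 (CD8 naive over CD8 effector), 1.43 and 1.54 (CD4 naive over CD4 effector), 8.11 and 8.13 (CD8 naive over neutrophil) and 2.43 and 2.42 (CD8 naive over macrophage). In cells of 4000 to 8000 UMIs, the log2 library ratio was -0.054 in CD8 naive, 0.16 in CD4 naive, 0.12 in CD8 effector, 0.046 in CD4 effector, 0.22 in cycling T, 0.018 in B, 0.13 in macrophages or monocytes and 0.042 in neutrophils, and the share ratio between types was 1.63 and 1.44 (CD8 naive over CD8 effector), 1.46 and 1.58 (CD4 naive over CD4 effector), 9.63 and 9.01 (CD8 naive over neutrophil) and 2.99 and 2.63 (CD8 naive over macrophage). With at least 1000 genes, the log2 library ratio was -0.013 in neutrophils, and the share ratio between types was 8.06 and 7.98 (CD8 naive over neutrophil). With 6 neutrophil gate genes, the log2 library ratio was -0.052 in neutrophils, and the share ratio between types was 9.06 and 9.22 (CD8 naive over neutrophil). Without mitochondrially coded genes and Malat1 in the total, the share ratio between types was 1.53 in LYZKL (CD4 naive over CD4 effector), 8.26 and 8.13 (CD8 naive over neutrophil) and 2.47 and 2.41 (CD8 naive over macrophage). In the main setting, 11 pairs of member and type were at least 25% higher in LYZKL and 4 at least 20% lower. The first count was 34 with thinning, 37 in cells of 4000 to 8000 UMIs, 33 under TMM and 19 with no CPM minimum. The second was 10 with 1 more gate gene, 16 with thinning, 16 with 6 neutrophil gate genes, 8 at 5 CPM and 13 with no minimum. Members lower in CD8 naive cells, 1 in each comparison between types, were 0 against CD8 effector cells with thinning, and 0 against neutrophils with 1 more gate gene or 6 neutrophil gate genes. With a minimum of 5 CPM 2 members were lower in CD4 naive than in CD4 effector cells, 2 in CD8 naive cells than in neutrophils and 2 than in macrophages or monocytes, and with no minimum 2, 2 and 3. Rpl7l1 in Treg cells went to 0.91 with thinning and Rpl36al in neutrophils to 0.13 in cells of 4000 to 8000 UMIs, both reversed. Thinning left 109 and 62 CD8 naive cells, and the window of 4000 to 8000 UMIs left 34 and 67 macrophages or monocytes and 35 and 48 cycling T cells. No paired analysis was possible because each group holds 1 library, and for the same reason no library could be left out. Depth limits the members under 100 CPM, whose values rest on few UMIs.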
